A study of Mus musculus with 7 samples.

Results

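Megakaryocytes are the bone marrow cells that shed platelets, and 10 genes of their adhesion receptors and granule proteins were followed here through sorted mouse progenitors. The genes were Vwf, Pf4, Selp, Itga2b, Ppbp, Gp1ba, Gp1bb, Gp6, Gp9 and Clec1b. They were picked by name, all 10 were among the 23930 genes in the count tables, and 9 passed the filter on low counts (every one but Gp6). The libraries came from 4 groups. BL/6 (C57BL/6) mice gave 2 libraries of common myeloid progenitors (CMPs), and pMT-10 mice, which overexpress IL-10, gave 2 libraries of CMPs, 2 of lineage-negative SCA-1+ c-KIT+ cells positive for CD150 and CD48 (LSK CD150+CD48+ cells) and 1 of haematopoietic stem cells (HSC). In pMT-10 mice a metallothionein promoter, which zinc switches on, drives an Il10 transgene. Mice of all 4 groups, the BL/6 controls included, drank zinc for 15 days, so zinc itself does not separate the groups, and no group lacks it. The labels give no age, no gates for the CMP and HSC sorts and no animal behind a library.

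Platelet adhesion begins when von Willebrand factor, laid down on exposed collagen, is caught by the glycoprotein Ib-IX complex, built from the products of Gp1ba, Gp1bb and Gp9. Collagen itself is sensed by Gp6, and podoplanin on other cells by the C-type lectin receptor that Clec1b encodes. These contacts activate the fibrinogen receptor, an integrin whose alpha chain is Itga2b (CD41) and whose beta chain is Itgb3. Activated platelets then release granules that hold the CXC chemokines Pf4 and Ppbp and von Willebrand factor, and bring P-selectin (Selp), a granule membrane protein that binds leukocytes, to their surface. In mouse marrow Itga2b and Vwf are also transcribed in part of the stem cell pool. Selp and Vwf are shared with endothelial cells.

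Promoters of a pair of neighbouring members and of a pair from 1 receptor are shown first, so that the motifs searched can be read in place. A 300-base window around the gene start was found in the RefSeq table (GRCm38.p6) for 9 of the 10 members, that is for all but Vwf. The search was for the GATA motifs AGATAA and TGATAA and for the ETS motif GGAAGT, on both strands. None of the 3 motifs overlapped another in the member windows. GATA and ETS proteins are the factor families best known at megakaryocyte promoters, among them Gata1 and Fli1. The 250 bases before the start of 4 members follow, each 5′ to 3′ on the strand of its gene. Capitals mark a motif, which reads ACTTCC or TTATCA where it lies on the other strand. Ppbp and Pf4 are neighbours on chromosome 5 with 2371 bases between them, and both run on the plus strand. Gp9 and Gp1ba, of chromosomes 6 and 11, encode partners in 1 receptor and are also on the plus strand.
Ppbp, chr5:90768268-90768517: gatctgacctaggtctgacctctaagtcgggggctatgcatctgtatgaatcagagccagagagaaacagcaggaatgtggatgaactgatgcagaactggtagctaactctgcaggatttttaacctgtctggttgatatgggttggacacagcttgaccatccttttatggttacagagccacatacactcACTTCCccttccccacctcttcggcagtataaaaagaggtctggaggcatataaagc
Pf4, chr5:90772185-90772434: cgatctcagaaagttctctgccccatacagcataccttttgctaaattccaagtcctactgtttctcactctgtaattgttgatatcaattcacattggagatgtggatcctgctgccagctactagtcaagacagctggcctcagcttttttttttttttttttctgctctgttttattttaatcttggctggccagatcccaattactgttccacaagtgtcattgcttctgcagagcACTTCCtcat
Gp9, chr6:87777820-87778069: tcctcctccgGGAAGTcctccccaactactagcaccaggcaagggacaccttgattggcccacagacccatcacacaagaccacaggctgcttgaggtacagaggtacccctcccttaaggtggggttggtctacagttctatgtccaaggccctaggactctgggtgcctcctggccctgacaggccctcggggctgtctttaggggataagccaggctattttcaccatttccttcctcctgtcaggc
Gp1ba, chr11:70638872-70639121: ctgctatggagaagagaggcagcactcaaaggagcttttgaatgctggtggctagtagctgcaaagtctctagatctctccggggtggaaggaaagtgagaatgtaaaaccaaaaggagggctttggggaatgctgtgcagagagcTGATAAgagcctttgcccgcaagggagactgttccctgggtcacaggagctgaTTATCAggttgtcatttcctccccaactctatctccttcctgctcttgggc

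The ETS motif stood 57 bases before the start of Ppbp, 10 bases before that of Pf4 and 240 before that of Gp9. It stood 26 bases before the RefSeq start of Itga2b, but GENCODE places the start of this gene further out, and 180 of the 250 bases lie in its annotated exons. In Selp it began at the 21st base after the start. Gp1ba held no ETS motif in its window but TGATAA on each strand, 104 and 51 bases before the start. Of the 9 member windows 6 held the ETS motif, as did 23.8% of all 32851 promoter windows in the table. Either GATA motif was in 4 of the 9 (Pf4, Clec1b, Gp6 and Gp1ba) and in 18.6% of all. Pf4 and Gp6 held both kinds, which 4.26% of all windows did. The 4 members that rose in pMT-10 CMPs (Pf4, Selp, Itga2b and Ppbp, below) all have the ETS letters in the window, and so do Gp9, which was not called there, and Gp6, which was not tested. These are matches of letters and not shown to be bound sites.

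The libraries held 7372430 to 13854314 counts each, with 1 amplicon per gene, so a level in CPM (counts scaled to a common library total) compares libraries for 1 gene and not genes with each other. A count of 0 allows up to 3 counts, which is 0.216 to 0.397 CPM. Chip 1 carried the pMT-10 CMPs and the LSK CD150+CD48+ cells, and chip 2 carried HSC and the BL/6 CMPs. The chip numbers are given here. The names of the count tables carry a different date for each chip, months apart, so a difference of chip is also one of date. The pMT-10 CMP pair differed most, with an SD of the log2 difference across genes of 0.71, against 0.40 for LSK CD150+CD48+ cells and 0.31 for BL/6 CMPs. Since no label ties replicates to different animals, the spread that p-values are judged by may be technical. Labels were checked against 10 sort and stem cell genes, and not all followed the gates. Slamf1 (CD150) was at 89.3 CPM in HSC and 56.6 in LSK CD150+CD48+ cells, against 12.4 and 22.4 in pMT-10 and BL/6 CMPs. Procr, a stem cell surface receptor, was at 38.5 CPM in HSC and at 0.360 to 1.98 in the other group means. Ly6a (SCA-1) was at 287 CPM in LSK CD150+CD48+ cells and 331 in HSC, against 23.7 in pMT-10 and 1.06 in BL/6 CMPs, so the CMPs of the strains differed in this gene too (log2 fold change 4.41 ± 0.65, adjusted p = 0.00218). Cd48 was lowest in HSC, at 6.48 CPM, but was at 61.9 in pMT-10 CMPs and 52.0 in the CD48+ cells, and their libraries overlapped. Kit was lowest in the c-KIT+ LSK CD150+CD48+ cells, at 99.4 CPM, with 118 in pMT-10 CMPs, 157 in HSC and 288 in BL/6 CMPs.

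**Figure D1:**
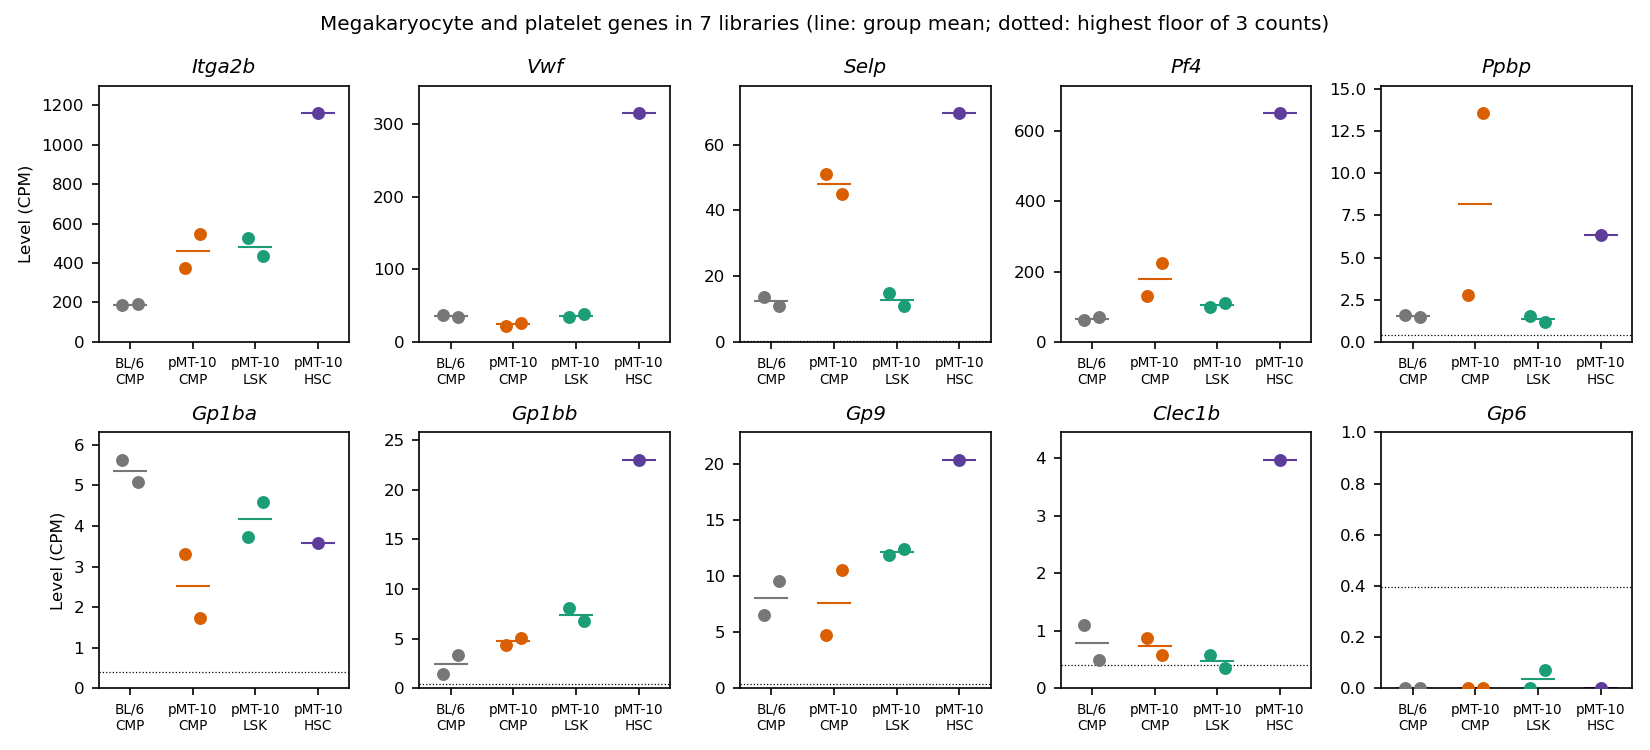
Level of each of the 10 genes in CPM (linear axes from 0) in each library, by group; LSK stands for LSK CD150+CD48+ cells, points are libraries, lines are group means and the dotted line is the highest floor of 3 counts (0.397 CPM). Itga2b and Vwf are highest in the HSC library, Gp1ba is highest in BL/6 CMPs and Gp6 lies under the floor throughout.

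Itga2b, the integrin alpha chain, had 2009 and 2376 counts in BL/6 CMPs, 3388 and 4740 in pMT-10 CMPs, 4508 and 6049 in LSK CD150+CD48+ cells, against 8761 in HSC. Its level was thus 185 and 192 CPM in BL/6 CMPs, 374 and 549 in pMT-10 CMPs, 527 and 435 in LSK CD150+CD48+ cells, against 1159 in HSC. BL/6 CMPs were lowest and HSC highest, and the libraries of pMT-10 CMPs and LSK CD150+CD48+ cells overlapped. The gene lies on the minus strand of chromosome 11 (102453297 to 102470122, mm10), with the small RNA gene Gm23563 inside it on the same strand.

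Vwf, whose product bridges collagen and platelets, was at 37.2 and 34.0 CPM in BL/6 CMPs, 21.6 and 26.5 in pMT-10 CMPs, 34.5 and 38.0 in LSK CD150+CD48+ cells, against 315 in HSC. The HSC library stood 8.30-fold above the next highest library, while the other 6 libraries lay within a narrow band in which pMT-10 CMPs were lowest. BL/6 CMPs and LSK CD150+CD48+ cells overlapped. The gene spans 139906 bases of chromosome 6 (125546774 to 125686679).

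Pf4, the granule chemokine also called platelet factor 4, was at 61.2 and 71.3 CPM in BL/6 CMPs, 131 and 225 in pMT-10 CMPs, 99.3 and 109 in LSK CD150+CD48+ cells, against 651 in HSC. No pair of groups overlapped, and the order from the bottom was BL/6 CMPs, LSK CD150+CD48+ cells, pMT-10 CMPs and HSC. Ppbp, its neighbour on chromosome 5 and the precursor of platelet basic protein, was far less counted. It had 17 and 18 counts in BL/6 CMPs, 25 and 117 in pMT-10 CMPs, 13 and 16 in LSK CD150+CD48+ cells, against 48 in HSC. In CPM these were 1.57 and 1.45, 2.76 and 13.6, 1.52 and 1.15, and 6.35. Both pMT-10 CMP libraries were above the other CMPs and the LSK cells, but replicate 2 was 4.92-fold above replicate 1, and HSC lay between them.

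Selp, which encodes P-selectin (chromosome 1, 164115264 to 164150026), was at 13.7 and 11.0 CPM in BL/6 CMPs and 14.7 and 10.9 in LSK CD150+CD48+ cells, which overlapped. In pMT-10 CMPs it reached 51.1 and 45.1 CPM, and 69.5 in HSC. The high groups, pMT-10 CMPs (chip 1) and HSC (chip 2), are both of pMT-10 mice, and the low groups are LSK CD150+CD48+ cells (pMT-10, chip 1) and BL/6 CMPs (chip 2). Selp overlaps the genes Gm16587 and Gm16548 on the opposite strand, and no source says whether counting used the strand.

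The subunits of the receptor for von Willebrand factor did not share 1 pattern. Gp1ba, the chain that binds von Willebrand factor, had 61 and 63 counts in BL/6 CMPs, 30 and 15 in pMT-10 CMPs, 32 and 64 in LSK CD150+CD48+ cells, against 27 in HSC, or 5.63 and 5.09, 3.31 and 1.74, 3.74 and 4.60, and 3.57 CPM. It was highest in BL/6 CMPs, and HSC lay between the pMT-10 CMPs and the LSK CD150+CD48+ cells. Gp1bb, the partner linked to it by a disulfide bond, was at 1.48 and 3.39 CPM in BL/6 CMPs, 4.41 and 5.10 in pMT-10 CMPs, 8.06 and 6.76 in LSK CD150+CD48+ cells, against 23.0 in HSC. Its groups did not overlap, with BL/6 CMPs lowest, which is the reverse of their place for Gp1ba. Gp9, the smallest of these subunits, was at 6.55 and 9.53 CPM in BL/6 CMPs, 4.74 and 10.5 in pMT-10 CMPs, 11.9 and 12.4 in LSK CD150+CD48+ cells, against 20.4 in HSC. The CMPs of both strains overlapped and HSC was highest.

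Ratios of counts within a library do not depend on how libraries are scaled. The ratio of Gp1bb to Gp1ba counts was 0.262 and 0.667 in BL/6 CMPs, 1.33 and 2.93 in pMT-10 CMPs, 2.16 and 1.47 in LSK CD150+CD48+ cells, against 6.44 in HSC. The exact 95% interval of the HSC value, 4.28 to 10.1, lay above those of all libraries except pMT-10 CMP replicate 2 (1.60 to 5.67), and covers counting error only. Gp1bb (chromosome 16, 18620317 to 18622403) shares its place on the same strand with Sept5, a septin gene whose transcripts can run on into Gp1bb, and with Gm49601. Sept5 had 2 and 3 counts in BL/6 CMPs, 0 and 25 in pMT-10 CMPs, 13 and 27 in LSK CD150+CD48+ cells, against 45 in HSC. Like Gp1bb, Sept5 was highest in HSC and low in BL/6 CMPs. In the pMT-10 CMP library without a Sept5 count, Gp1bb had 40 counts. The sources do not place either amplicon within its gene, and the part of Sept5 transcripts in the Gp1bb counts was not tested.

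The remaining receptors had few or no counts. Clec1b had 12 and 6 counts in BL/6 CMPs, 8 and 5 in pMT-10 CMPs, 5 and 5 in LSK CD150+CD48+ cells, against 30 in HSC, or 3.97 CPM in HSC against 0.360 to 1.11 in the other libraries. HSC stood apart, and the other groups overlapped. Clec1b shares its end with the start of Clec9a on the same strand. Gp6, the collagen receptor, had 0 counts in 6 libraries and 1 in LSK CD150+CD48+ replicate 2, so a difference was not detectable at this depth.

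**Figure D2:**
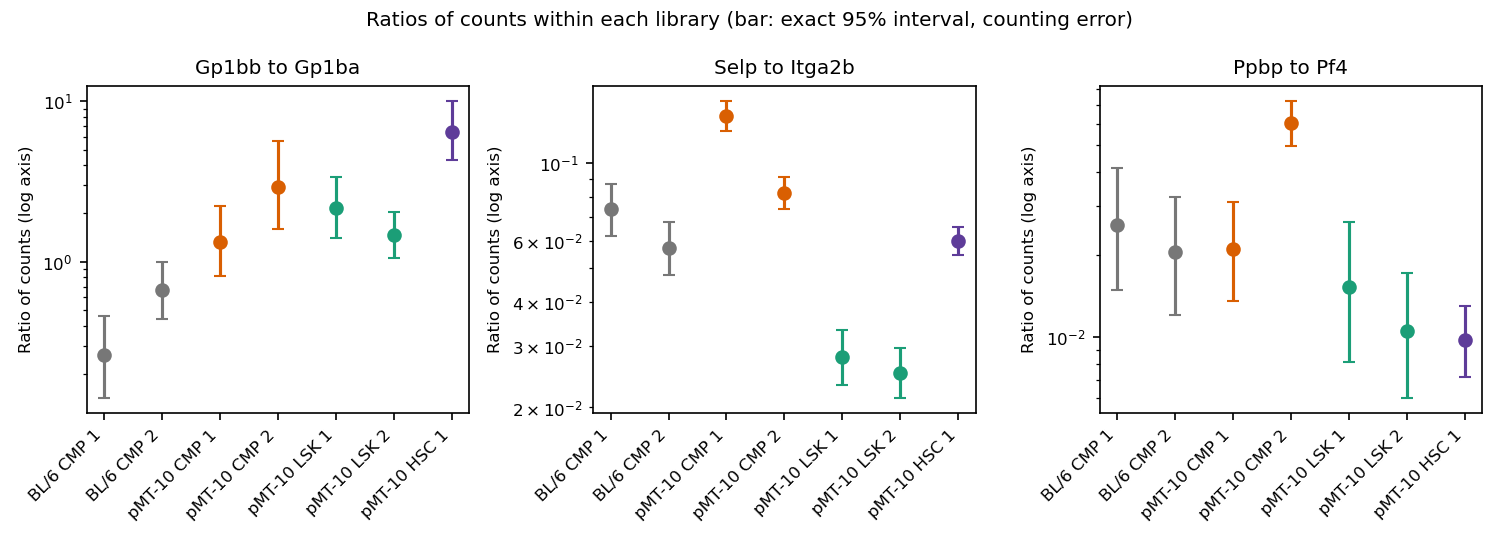
Ratios of the counts of 2 genes within each library (log axes), with exact 95% intervals for counting error; LSK stands for LSK CD150+CD48+ cells. Gp1bb to Gp1ba runs from 0.262 in a BL/6 CMP library to 6.44 in HSC, Selp to Itga2b is lowest in both LSK libraries (0.0280 and 0.0251), and Ppbp to Pf4 is highest in pMT-10 CMP replicate 2 (0.0602).

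CMPs of pMT-10 mice were set against those of BL/6 mice to ask how IL-10 overexpression alters them. On the log2 scale 4 members were higher in pMT-10 CMPs: Selp by 1.96 ± 0.24 (SE, with an adjusted p = 0.00178), Pf4 by 1.43 ± 0.25 (adjusted p = 0.00495), Itga2b by 1.29 ± 0.22 (adjusted p = 0.00424) and Ppbp by 2.42 ± 0.68 (adjusted p = 0.0282). No other member passed. Vwf was at -0.56 ± 0.20 (adjusted p = 0.0595), Gp1ba at -1.08 ± 0.43 (adjusted p = 0.0888) and Gp1bb at 0.95 ± 0.42 (adjusted p = 0.121). Gp9 (-0.08 ± 0.39) and Clec1b (-0.10 ± 0.78) overlapped between the strains.

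Of the 9 members tested 4 were called higher and 0 lower at an adjusted p under 0.05, beside 28.0% of all 11429 tested genes in either direction, 14.3% higher and 13.7% lower. The median log2 fold change was 0.95 over these 9 and 0.01 over all genes tested. The summed level of the 10 members was 314 and 328 CPM in BL/6 CMPs and 594 and 877 in pMT-10 CMPs. Most of these sums came from Itga2b (group means of 189 and 461 CPM) and Pf4 (66.2 and 178), so they say little of the other members. Strain, chip and chip date coincide here and cannot be told apart. In sorted pools fewer cells of a type and less RNA per cell cannot be told apart either. Without BL/6 replicate 1 just Selp was called, with adjusted p = 0.0546 for Itga2b, 0.0592 for Pf4 and 0.162 for Ppbp. Ppbp rested on 1 library, with a log2 fold change of 0.86 (adjusted p = 0.208) without pMT-10 CMP replicate 2, and lost its call also without BL/6 replicate 2 (adjusted p = 0.158), with limma-voom (0.0882) and with only these groups fitted (0.0711). Vwf was called lower without pMT-10 CMP replicate 2 (-0.72, adjusted p = 0.00933) and Gp1ba lower without pMT-10 CMP replicate 1 (-1.62, adjusted p = 0.0114).

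Markers of other cells moved in the same comparison, in which 14.3% of all genes were called higher and 13.7% lower. Of 15 granulocyte and monocyte markers measured and tested 9 rose and 0 fell, and their summed level was 361 to 399 CPM in BL/6 CMPs and 758 to 1087 in pMT-10 CMPs, with none at 0 counts in either group. Of 11 tested erythroid markers (12 measured) 2 fell and 0 rose, with sums of 13528 to 15989 CPM in BL/6 and 10229 to 11629 in pMT-10 CMPs. Car1 made up most of these erythroid sums (group means of 9678 and 7296 CPM). Of 8 tested endothelial markers (13 measured) 1 rose (Egfl7) and 1 fell (Plvap), and the sums overlapped (115 to 118 against 92.1 to 121 CPM). Of the same list, Cdh5 had 1 count in 1 BL/6 library and 0 in the other CMP libraries, and Cldn5, Stab2, Sox17 and Sox18 were at 0 in all 4 CMP libraries. The part of the granulocyte and erythroid markers in the members' differences was not tested.

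**Figure D3:**
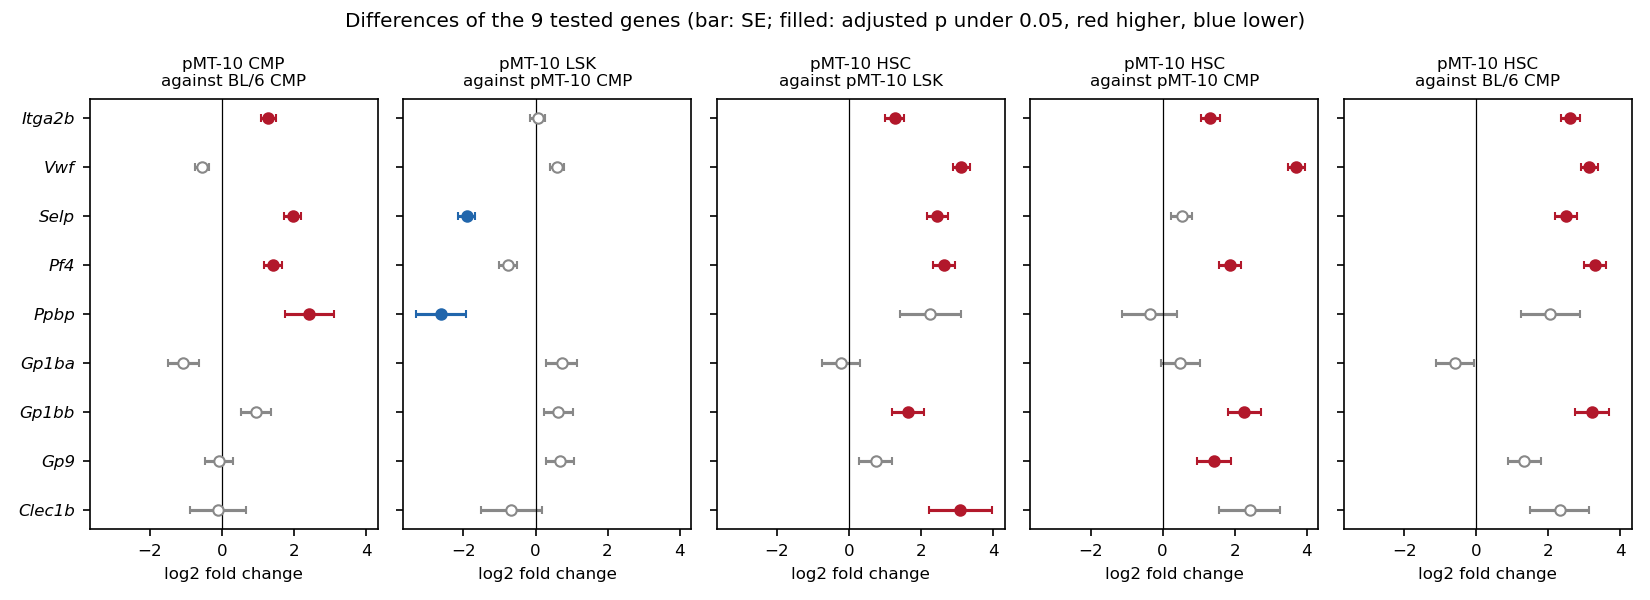
Log2 fold changes (first group minus second, with SE) of the 9 tested genes in 5 comparisons; filled points passed an adjusted p of 0.05, red higher and blue lower, and LSK stands for LSK CD150+CD48+ cells. Selp and Ppbp are higher in pMT-10 than in BL/6 CMPs and lower in LSK cells than in pMT-10 CMPs, and Vwf is more than 3 log2 units higher in HSC in each of the 3 comparisons on the right.

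LSK CD150+CD48+ cells, a multipotent population known in the mouse for megakaryocyte and erythroid output, were set against CMPs of the same strain and chip. Of the 9 tested members 2 were called. Selp fell by 1.91 on the log2 scale (SE 0.24, adjusted p = 0.00302), to levels that overlapped those of BL/6 CMPs, and Ppbp fell by 2.62 (SE 0.69, adjusted p = 0.0415). Itga2b was at 0.06 ± 0.22 (adjusted p = 0.879), and its sign turned without pMT-10 CMP replicate 1 (-0.19) or LSK CD150+CD48+ replicate 1 (-0.08). Pf4 was at -0.77 ± 0.25 (adjusted p = 0.0742) and Vwf at 0.59 ± 0.20 (adjusted p = 0.0812), neither called. The 3 subunits of the von Willebrand factor receptor were each at 0.63 to 0.73, with adjusted p of 0.275 to 0.312.

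This made 2 of 9 called, 0 higher and 2 lower, against 11.8% of all genes (5.92% in each direction), with a median of 0.06 over the 9 and -0.01 over all. The call of Selp was lost without LSK CD150+CD48+ replicate 1 (-2.13, adjusted p = 0.0614) or replicate 2 (-1.71, adjusted p = 0.0654), so that 0 members were then called. Ppbp lost its call without either of these (adjusted p = 0.23 and 0.263) and without pMT-10 CMP replicate 2 (-1.07, adjusted p = 0.166), and with limma-voom (-2.19, adjusted p = 0.109) or only these groups fitted (-2.62, adjusted p = 0.0854). Pf4 was called lower with DESeq2 (adjusted p = 0.0404) and with no filter on low counts (0.00501). Without pMT-10 CMP replicate 1, Pf4 (-1.11, adjusted p = 9.27e-05) and Gp1ba (1.27, adjusted p = 0.0487) were called too, and without replicate 2 Vwf (0.75, adjusted p = 0.0133) and Gp9 (1.36, adjusted p = 0.0108). The ratio of Selp to Itga2b counts was 0.137 and 0.0821 in pMT-10 CMPs and 0.0280 and 0.0251 in LSK CD150+CD48+ cells, with intervals that did not meet. Granulocyte and monocyte markers were lower in LSK CD150+CD48+ cells as well (11 of 15 fell, 0 rose, sums of 162 to 171 CPM), and their part in the Selp and Ppbp values was not tested.

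The single HSC library was set against each of the other groups; these 3 comparisons share it, and its spread is assumed to be that of the other libraries. Vwf was higher by 3.12 ± 0.23 than in LSK CD150+CD48+ cells (adjusted p = 0.000267), by 3.71 ± 0.24 than in pMT-10 CMPs (adjusted p = 0.000105) and by 3.15 ± 0.23 than in BL/6 CMPs (adjusted p = 7.56e-05). Pf4 was higher by 2.64 ± 0.30, 1.87 ± 0.30 and 3.30 ± 0.30 in the same order, Itga2b by 1.27 ± 0.26, 1.33 ± 0.26 and 2.62 ± 0.26, and Gp1bb by 1.64 ± 0.45, 2.27 ± 0.47 and 3.22 ± 0.48, all called. Selp was called higher against LSK CD150+CD48+ cells (2.44 ± 0.29) and BL/6 CMPs (2.50 ± 0.29) but not against pMT-10 CMPs (0.53 ± 0.29, adjusted p = 0.192).

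Gp1ba did not follow its partners, with -0.23 ± 0.53, 0.50 ± 0.55 and -0.58 ± 0.53, none called. Gp9 was called against pMT-10 CMPs (1.42 ± 0.47, adjusted p = 0.0485) and not against LSK CD150+CD48+ cells (0.74 ± 0.46) or BL/6 CMPs (1.34 ± 0.46, adjusted p = 0.0659). Clec1b was called against LSK CD150+CD48+ cells (3.09 ± 0.88, adjusted p = 0.0333), a comparison of 30 counts with 5 and 5, and not against pMT-10 (2.42 ± 0.85, adjusted p = 0.056) or BL/6 CMPs (2.32 ± 0.82, adjusted p = 0.0681). Ppbp was not called in any of the 3. The members called higher were 6, 5 and 5 of 9, with 0 lower each time, beside 18.8%, 25.5% and 20.3% of all genes called in either direction, with 10.6%, 13.8% and 11.8% called higher and 8.14%, 11.7% and 8.50% lower. Medians over the 9 were 2.26, 1.42 and 2.50, and over all genes 0.03, 0.02 and -0.01.

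HSC and BL/6 CMPs were read on 1 chip but differ in strain, while HSC and the other pMT-10 libraries share the strain but not the chip. Vwf, Pf4, Itga2b and Gp1bb were called on either footing. Without LSK CD150+CD48+ replicate 1 or 2 the comparison with these cells called 3 members (Vwf, Pf4 and Selp). Itga2b (adjusted p = 0.0776 and 0.0924), Gp1bb (0.15 and 0.172) and Clec1b (0.142 and 0.177) then missed the threshold. Clec1b missed it there with DESeq2 too (adjusted p = 0.0747), and was called against pMT-10 CMPs without replicate 1 of these (0.0209) or replicate 2 (0.0489). Gp9 missed it against pMT-10 CMPs with a minimum count of 50 (adjusted p = 0.0539) or only these groups fitted (0.175), and 8 members were called against BL/6 CMPs in a fit of only these groups.

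The endothelial marker sum was also highest in HSC, at 185 CPM against 92.1 to 121 in the other 6 libraries, and Emcn, which stem cells share with endothelium, was at 17.5 CPM against 0.503 to 2.50. Of 8 tested endothelial markers 3, 4 and 4 were higher in HSC than in LSK CD150+CD48+ cells, pMT-10 CMPs and BL/6 CMPs, and 1, 2 and 1 lower, with medians of 0.87, 1.28 and 1.99. Tie1, an endothelial receptor, was at 85.1 CPM in HSC against 9.49 to 18.2, and Robo4 at 13.2 against 0.216 to 1.29. Tek (30.6 CPM) and Kdr (3.70) of this list were also highest in HSC, against group means of 10.8 to 26.7 and 1.25 to 2.27. Plvap (9.26) and Egfl7 (23.9) were lowest there. Cdh5, Cldn5, Stab2 and Sox17 had 0 counts in the HSC library, but Cldn5 and Sox17 had 0 in all 7 libraries. Sox18 had 6 counts in HSC, with 0 in all other libraries. B cell markers (4 measured, 1 tested and called higher in all 3 comparisons) summed to 52.5 CPM in HSC and 11.2 to 19.9 elsewhere. Erythroid markers summed to 2386 CPM against 9962 to 15989, with 8, 8 and 9 of 11 lower. T and NK cell markers summed to 1.05 to 5.95 CPM and macrophage markers to 2.78 to 17.3 over the 7 libraries, HSC the highest for both. Granulocyte and monocyte markers summed to 515 CPM in HSC, with 5 of 15 higher and 0 lower than in LSK CD150+CD48+ cells, 1 higher and 10 lower than in pMT-10 CMPs, and 1 higher and 5 lower than in BL/6 CMPs. The part of these markers, those of endothelium included, in the members' values was not tested.

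Other megakaryocyte genes were read from 6 lists without the 10 members. Treml1, a receptor of platelet granules, was lower in pMT-10 CMPs (3.42 and 1.97 CPM) than in BL/6 CMPs (6.55 and 7.03), by 1.33 ± 0.34 on the log2 scale (adjusted p = 0.0194), at 12.5 and 12.6 CPM in LSK CD150+CD48+ cells, against 38.4 in HSC. The log2 differences of Treml1 were 2.21 ± 0.33 from pMT-10 CMPs to LSK CD150+CD48+ cells (adjusted p = 0.00476) and 1.61 ± 0.35 from these to HSC (adjusted p = 0.0136). Treml1 thus stepped up from pMT-10 CMP to LSK CD150+CD48+ cell to HSC. Among the members, group means of Vwf, Itga2b, Gp1bb and Gp9 rose in the same order, though their first step was not called in the main fit. Selp, Pf4, Ppbp, Gp1ba and Clec1b did not follow it.

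Mmrn1, a granule protein that binds coagulation factor V, had 0 counts in both BL/6 CMP libraries, 25 and 22 in pMT-10 CMPs, 87 and 73 in LSK CD150+CD48+ cells, against 456 in HSC. Against the higher BL/6 floor (3 counts in a library) pMT-10 CMPs were at least 9.58-fold higher (adjusted p = 0.00249) and HSC at least 218-fold higher. Itgb3, the integrin chain that pairs with Itga2b, was at 14.8 and 15.9 CPM in BL/6 CMPs, 18.6 and 44.4 in pMT-10 CMPs, 45.1 and 33.4 in LSK CD150+CD48+ cells, against 74.9 in HSC, and did not pass between the CMPs (1.04 ± 0.37, adjusted p = 0.0631). Tubb1, the tubulin of the platelet marginal band, went from 2.12 and 1.62 CPM to 2.98 and 10.8 in pMT-10 CMPs (1.87 ± 0.58, adjusted p = 0.0393), with 7.71 and 5.90 in LSK CD150+CD48+ cells, against 7.81 in HSC. For Tubb1 and Itgb3, as for Ppbp, Pf4, Itga2b, Gp9, Vwf and Gp1bb, the pMT-10 CMP library with the higher level was replicate 2. Among the members, Selp, Gp1ba and Clec1b were higher in replicate 1. Gp5, the last subunit of the von Willebrand factor receptor, was not analysed here.

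Of the transcription factors, Fli1 was higher in pMT-10 than in BL/6 CMPs (126 and 196 against 60.8 and 55.6 CPM, 1.47 ± 0.23) and Gata1 lower (179 and 262 against 420 and 427 CPM, -0.94 ± 0.25). Nfe2, a factor of platelet release, did not pass there (0.35 ± 0.17, adjusted p = 0.146) and was higher in LSK CD150+CD48+ cells than in pMT-10 CMPs (0.70 ± 0.17, adjusted p = 0.0298). In the list of transcription and ploidy genes 5 of 29 tested rose in pMT-10 CMPs, beside 14.3% of all genes. Among them were Fli1 and the cyclin gene Ccnd3 (0.63 ± 0.17). In the same list 6 fell, beside 13.7% of all genes, led by Gata2 (-1.60 ± 0.25), Gfi1b (-0.88 ± 0.17) and the corepressor gene Cbfa2t3 (-0.997 ± 0.19).

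**Figure D4:**
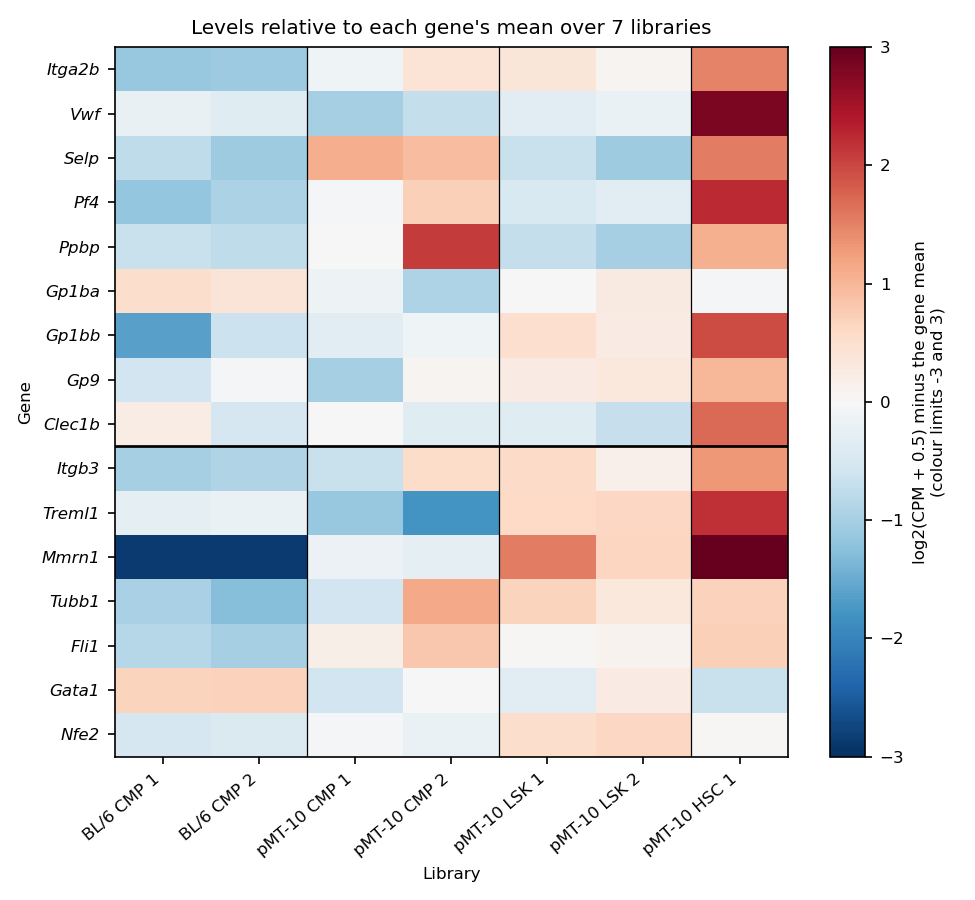
Log2(CPM + 0.5) of 9 members and, under the line, of 7 other megakaryocyte genes, each minus its own mean over the 7 libraries (colours end at -3 and 3); LSK stands for LSK CD150+CD48+ cells. Vwf, Treml1 and Mmrn1 are highest in HSC, and Gata1 and Gp1ba are highest in BL/6 CMPs.

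The other lists were mixed between the CMPs of the strains, where 14.3% of all genes were called higher and 13.7% lower. Among 23 tested platelet receptors 2 rose in pMT-10 CMPs, F2rl2 (2.33 ± 0.45), a thrombin receptor, and Pear1 (0.91 ± 0.21), and 3 fell: Treml1, the thrombin receptor gene F2r (-1.54 ± 0.40) and Cd36 (-2.19 ± 0.74). Of 31 granule genes 8 rose, among them Vps33b (1.43 ± 0.20), which is needed to build alpha granules, and Timp3 (1.97 ± 0.30), and 2 fell, Lamp1 (-0.86 ± 0.25) and Vipas39 (-1.52 ± 0.33), whose product is the partner of that of Vps33b. Of 54 signalling and cytoskeleton genes 12 rose, including the prostaglandin synthase gene Ptgs1 (1.27 ± 0.25), the calcium channel gene Orai1 (1.63 ± 0.32) and Alox5ap (1.63 ± 0.31), and 6 fell, including the adaptor gene Lcp2 (-1.48 ± 0.19), the kinase gene Csk (-1.02 ± 0.18) and Vwa5a (-1.52 ± 0.21).

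Of 19 thrombopoietin signalling genes 4 rose (Pik3cd, Pim1 and Stat3 among them, at 1.32 ± 0.20, 0.94 ± 0.20 and 0.95 ± 0.24) and 4 fell (among them Pik3r1, Shc1 and Stat5b, at -1.23 ± 0.22, -1.15 ± 0.23 and -0.75 ± 0.17). Of 20 genes of megakaryocyte-primed stem cells 2 rose, Ehd3 (2.26 ± 0.29) and Clca3a1 (1.86 ± 0.24), and 4 fell, with Gata2, Mllt3 (-2.60 ± 0.43) and Slamf1 (-0.85 ± 0.23) among them. These counts stand beside 14.3% of all genes called higher and 13.7% lower. Median log2 fold changes of the 6 lists ran from -0.11 for transcription and ploidy genes to 0.27 for receptors and 0.35 for granule genes. Over all genes the median was 0.01.

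From pMT-10 CMPs to LSK CD150+CD48+ cells 7 of 23 receptor genes rose, 0 fell and 16 were not called, beside 5.92% of all genes in each direction, with F2r at 2.91 ± 0.39 and Treml1 among those that rose. Of the primed stem cell genes 8 of 20 rose and 0 fell, with Gata2 at 2.59 ± 0.25, Mllt3 at 3.13 ± 0.43 and Slamf1 at 2.19 ± 0.22, the last being a gene of the sort. In the signalling list 8 of 54 rose, with the adaptor gene Lat at 1.88 ± 0.20, Vwa5a at 1.28 ± 0.21 and Gna13 at 1.18 ± 0.18, and 1 fell, Fcer1g (-1.72 ± 0.24), the signalling partner of Gp6 that myeloid cells share. Granule genes were even, with Tgfb1 (0.81 ± 0.18) and Mmrn1 higher and F13a1 (-3.25 ± 0.48), which monocytes also make, and the monoamine transporter gene Slc18a2 (-0.88 ± 0.20) lower, of 31. Of the transcription and ploidy genes 6 of 29 rose, with Gata2, Cbfa2t3 (1.26 ± 0.19) and Mkl1 (1.06 ± 0.22), and 3 fell, the cyclin genes Ccne1 (-2.13 ± 0.30) and Ccne2 (-1.01 ± 0.26) and the cofactor gene Ldb1 (-0.58 ± 0.16). Of the thrombopoietin list 2 of 19 rose, Stat5b (0.82 ± 0.17) among them, and 0 fell.

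The HSC comparisons share 1 library. Against pMT-10 CMPs, where 13.8% of all genes were higher and 11.7% lower, 14 of 23 receptor genes rose and 0 fell, 12 of 31 granule genes rose and 3 fell, 19 of 54 signalling genes rose and 3 fell, and 16 of 20 primed stem cell genes rose and 0 fell. Median log2 fold changes of these 4 lists were 1.49, 0.86, 0.46 and 2.55. The transcription list was even, with 7 of 29 higher and 8 lower. Against BL/6 CMPs, on the same chip (all genes: 11.8% higher, 8.50% lower), the counts were 14 and 0 for receptors, 15 and 1 for granules, 21 and 4 for signalling, 15 and 2 for primed stem cells and 7 and 8 for transcription, in the same order of higher and lower. Against LSK CD150+CD48+ cells (all genes: 10.6% higher, 8.14% lower) they were 8 and 0, 12 and 0, 13 and 6, 12 and 3, and 0 and 7. The thrombopoietin list had 4 of 19 higher in all 3, with 2, 2 and 3 lower against pMT-10 CMPs, BL/6 CMPs and LSK CD150+CD48+ cells.

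**Figure D5:**
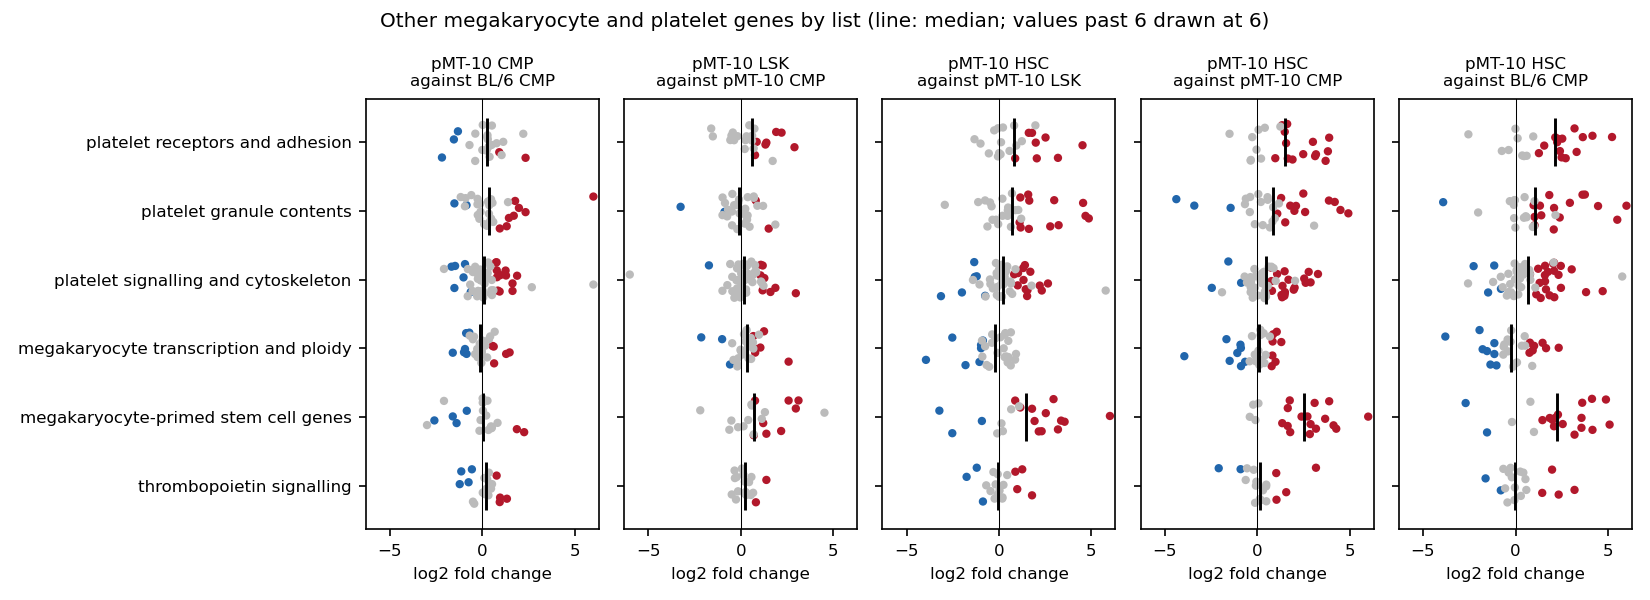
Log2 fold changes of the tested genes of 6 lists, members left out, in 5 comparisons; each point is a gene, red and blue passed an adjusted p of 0.05, lines are list medians, and LSK stands for LSK CD150+CD48+ cells. Points are spread to both sides for the CMPs of the 2 strains, while receptors and primed stem cell genes lie to the right in HSC, with medians of 1.49 and 2.55 against pMT-10 CMPs.

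Likeness of pattern was measured as the root-mean-square difference of log2 levels, each gene centred on its own mean over the 7 libraries. It was computed for the 5 members with a mean of 10 CPM or more, against 8022 other genes. Nearest to Vwf were Tgm2 (0.25), a transglutaminase gene, and Gng11 (0.30), a G protein subunit gene of platelets. Tgm2 was at 344 CPM in HSC and at 18.9 to 49.3 elsewhere. For Itga2b, Coro2a ranked 2 in likeness (0.20). Nearest to Pf4 were B4galt4 (0.22) and Il12a (0.26), to Selp Ufsp1 (0.34) and Snhg20 (0.37), and to Gp9 Trim47 (0.20) and Tmem110 (0.21).

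For each of these members the nearest non-member gene was closer than the nearest other member. As 8022 non-members were searched and only a few members, this outcome was nearly fixed in advance. The nearest other member of Vwf was Pf4, at 0.80, with 204 other genes closer, and of Selp also Pf4, at 0.62, with 60 closer. Pf4 and Itga2b were at 0.47 from each other, with 22 genes closer to Pf4 and 154 closer to Itga2b. Gp9 was 0.61 from Itga2b, with 1778 closer. With 7 libraries in 4 groups, such distances describe these libraries alone.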

How the data were processed

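Total RNA of sorted cells had been made into libraries with the Ion AmpliSeq Transcriptome mouse kit, which amplifies 1 short amplicon per gene, per the labels' protocols. The authors deposited unnormalized read counts, 1 value per gene amplicon and library, with a table for each chip. Their processing notes name mm10; no aligner or counting program is named in the sources used here. Reads carry no molecular identifiers, and intervals or floors hold for counting error alone, and a variant in an amplicon changes a count without a change in expression.

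These counts went into edgeR 4.0.16 (R 4.3.3): filterByExpr (minimum count 10) left 11429 of 23930 genes, libraries were TMM-scaled, and the 7 libraries were fitted with 1 mean per group (3 residual degrees of freedom, robust quasi-likelihood F-test). Genes with a Benjamini-Hochberg adjusted p under 0.05, over all 11429, are called. Standard errors come from the same fit. CPM use TMM-scaled totals. The procedure was tested on simulated counts. The members and lists were chosen with earlier results of these data known. Genes named outside the members are a fixed set (among them Itgb3, Gp5, Tubb1, Treml1, Mmrn1, Fli1, Gata1, Nfe2), up to 3 genes of smallest p per list and direction among those called in the first 2 comparisons, the 2 nearest genes by pattern, and, chosen after their values were seen, Sept5 and the sort and endothelial genes. Some genes that these rules name are not reported here. Gene positions are those of GENCODE M21. Alternatives were other size factors (RLE or totals), other filters, DESeq2 1.42.0, limma-voom (limma 3.58.1), only the groups compared, the replicate block and each replicate left out.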

Additional observations from a re-analysis of the deposited data

How the results depend on the processing

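The counts of members called were 4, 2, 6, 5 and 5 for pMT-10 against BL/6 CMPs, LSK CD150+CD48+ cells against pMT-10 CMPs, and HSC against LSK CD150+CD48+ cells, pMT-10 CMPs and BL/6 CMPs. Leaving out each replicate in turn gave 1 to 5, 0 to 4, 3 to 3, 6 to 6 and 5 to 5, with the library left alone in its group taken to spread as the others do. The second count was 1 with limma-voom, 1 with the replicate block and 1 with only the groups compared, and the last was 8 with only the groups compared; the cause was not tested. The replicate numbers did not mark shared animals or days in the labels, and the deviations of same-numbered libraries correlated at -0.03, -0.02 and -0.09. With the replicate number as a block 4 members were called between the CMPs, the same 4 genes, and Ppbp in LSK CD150+CD48+ cells against pMT-10 CMPs was at -2.42 (adjusted p = 0.0565). For single members 9 values turned sign, none of them called: Clec1b between the CMPs with limma-voom (0.0200) and over left-out replicates (-0.58 to 0.58), Gp9 between the CMPs over left-out replicates (-0.77 to 0.38), Itga2b in LSK CD150+CD48+ cells against pMT-10 CMPs likewise (-0.19 to 0.36), and Ppbp in HSC against pMT-10 CMPs with limma-voom (0.0716) and over left-out replicates (-1.09 to 1.20). Of the other values 392 kept direction and side of the threshold, 24 lost a call and 20 gained one. Vwf, Pf4 and Selp kept their calls in HSC against LSK CD150+CD48+ cells under all 9 alternatives, and Selp between the CMPs under all 12. Over all genes the 5 comparisons called 3204, 1354, 2145, 2912 and 2320. Leaving out a replicate gave 582 to 5268, 44 to 4274, 266 to 352, 4635 to 5222 and 815 to 918, only the groups compared gave 595, 3987, 1042 and 6127 for the last 4, and no filter gave 2237 for the second. Depth limits Gp6, Clec1b and Ppbp, each at under 10 counts or near it in some group.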
